A study of Mus musculus with 3 samples.

Results

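The Myc family and its partners were followed in single mouse embryonic stem (ES) cells before and after loss of cohesin. The 7 members were the rows with the symbols Myc, Mycn, Mycl, Max, Mxd3, Mxd4 and Mnt in the 3 count tables, out of 52636 mouse genes, and all 7 passed the filter on low counts among 17514 genes tested. Membership was decided by gene symbol with no cutoff on a measured value, although earlier results of these data were known when the members were chosen.

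Smart-SCRB sorts single cells into wells and counts each captured messenger RNA once, from its 3′ end, through a unique molecular identifier (UMI). The cells were JM8.N4 ES cells of the C57BL/6N strain, grown without feeders in serum with LIF and 2i, and both conditions used the same Rad21 mAID degron derivative, an engineered line in which auxin causes RAD21, a cohesin subunit, to be destroyed. All cells, controls included, carry the degron and the Tir1 protein that auxin needs. Replicate 1 names its cells by RAD21 presence or absence, read here as control and auxin. Control cells received no auxin, and auxin-treated cells received indole-3-acetic acid at 500 µM for 6 h. Each of 3 replicates held both conditions on separate plates, which gave 168, 371 and 85 control cells and 169, 290 and 84 auxin-treated cells in replicates 1, 2 and 3.

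In replicate 3, the deposited annotation and the source values of the study disagreed on the condition of 2 of 4 plates. Those plates and their 168 cells were left out, so that replicate 3 was 1 plate per condition, and the fold changes and positive shares of the members were also computed with the plates put back in either way. Summed mouse UMIs per replicate and condition ran from 6064936 to 50448320, and the median per cell from 72317 to 187088. Of 12 ES cell markers, 11 or 12 had a UMI in each sum, and together they gave 3233 to 10924 counts per 1000000 mouse UMIs (CPM). Against this, 6 fibroblast markers gave 1.66 to 27.1 CPM, 5 endoderm markers 3.66 to 10.2 CPM and 4 mesoderm markers 0.833 to 20.9 CPM. The 4 neural markers gave 1.79 to 129 CPM. Their sum was highest in replicate 1 through Tubb3 (73.1 and 117 CPM in control and auxin) and Sox1 (26.8 and 10.8 CPM). Both were listed at 0 in replicates 2 and 3. Pax6 went the other way, with 0.388 and 1.51 CPM in replicate 1 and 18.0 and 19.2 CPM in replicate 2. The listed values of the defining ES cell factors differed between replicates. Sox2 stood at 155 and 97.3 CPM (control and auxin) in replicate 1 and was listed at 0 in replicates 2 and 3, as Sox1 and Tubb3 were. What these 0 values reflect was not tested. Pou5f1 stood at 273 and 228 CPM in replicate 1 and at 5.81 to 12.5 CPM in the others. Nanog, by contrast, stood at 496 and 563 CPM in replicate 1, 58.6 and 38.9 CPM in replicate 2, and 525 and 495 CPM in replicate 3, so that for it replicate 2 alone was low, as it was for Klf2, Esrrb and Tfcp2l1. Rad21 mRNA was at 20.9, 31.2 and 42.4 CPM in control and 19.3, 34.0 and 45.2 CPM in auxin-treated cells of replicates 1, 2 and 3, and since auxin acts on the protein, this level does not check the labels.

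MYC, MYCN and MYCL are basic helix-loop-helix leucine zipper transcription factors that bind DNA as dimers with MAX and raise genes of ribosome production, metabolism and cell division. MXD3, MXD4 and MNT compete for the same partner, and their dimers with MAX recruit the SIN3 corepressor, so that the balance of the dimers sets activation against repression. In ES cells, Myc and Mycn are known to support self-renewal, and the Myc gene is known for enhancers that lie far from it.

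Dimers of MAX bind the E-box, CACGTG, which reads the same on both strands. Of the 6 members with a RefSeq promoter window (300 bases around the transcription start, GRCm38.p6), the E-box was found in 3, and it is present in 7.15% of 32851 such windows. No promoter window was given for Myc. The stretches that hold the motif are shown because MAX, MNT and MXD4 are themselves parts of the dimers that bind these letters, with the E-box in capitals. A match is a description and not a binding site. Max lies on the minus strand (chr12:76962234-76962263), Mnt on the plus strand (chr11:74830789-74830818) and Mxd4 on the minus strand (chr5:34187912-34187941).
Max: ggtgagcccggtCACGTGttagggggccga
Mnt: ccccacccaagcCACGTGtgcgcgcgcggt
Mxd4: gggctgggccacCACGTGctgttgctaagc
Counted from the RefSeq transcription start at which each window is anchored, the motif began 3 bases before the start of Max, 123 bases before that of Mnt and 219 bases before that of Mxd4. These starts are not the same positions as the gene ends given below, which are from GENCODE. The windows of Mycn, Mycl and Mxd3 did not hold these letters.

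The first question was how much of each member the cells contained. Mycn was the most abundant, with a mean over the 6 sums of replicate and condition of 54.3 ± 35.9 CPM (s.d., n = 6 sums), followed by Myc at 18.0 ± 6.77 CPM. Max, the shared partner, stood at 10.0 ± 1.84 CPM, and Mxd3, Mnt and Mycl had means of 8.58, 8.26 and 8.06 CPM. Mxd4 was lowest at 3.47 ± 0.847 CPM. A UMI stands for 1 transcript end whatever the length of the transcript, so these values can be set side by side, apart from differences in how well each 3′ end is captured. Mxd3, Mnt and Mycl could not be put in order. Mycn exceeded Myc in 5 of 6 sums, Myc exceeded Max in 5, Max exceeded Mxd3 in 5 and Mycl exceeded Mxd4 in 6, whereas Mxd3 exceeded Mnt in 3 and Mnt exceeded Mycl in 3.

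Among the 3 Myc paralogs, Mycn held 58.8% to 76.2% of the UMIs in 5 of the 6 sums. The exception was the auxin-treated plate of replicate 3, in which Mycn held 40.2% and Myc 45.8%.

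**Figure D1:**
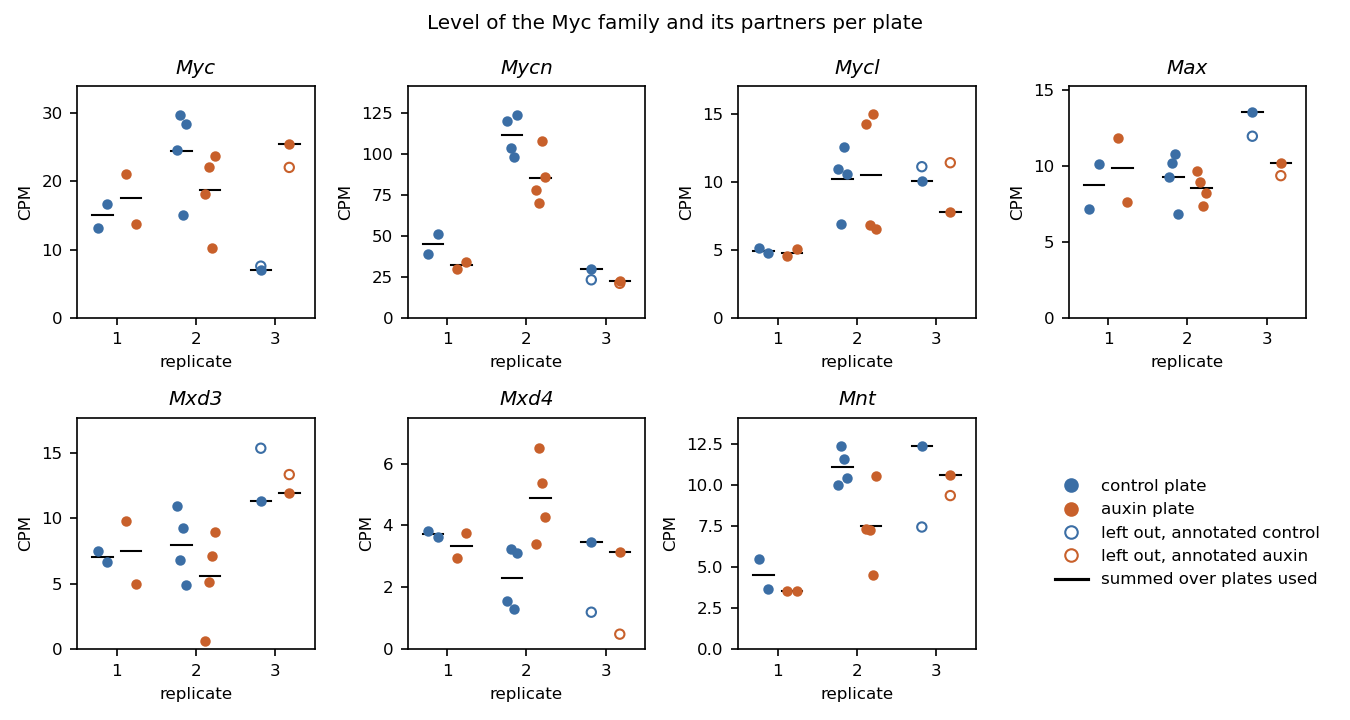
CPM of each member (y axis, with a separate scale per gene) in every plate by replicate (x axis). Filled points are plates used, open points the 2 plates of replicate 3 left out, and black lines the value summed over the plates used. Mycn lies lower in auxin than in control in all 3 replicates but is highest in replicate 2 in both conditions. Myc goes opposite ways in replicates 2 and 3.

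Mycn (chr12:12936093-12941914, minus strand, mm10) encodes the Myc paralog best known from the early embryo and the nervous system. Its level in control cells was 45.2, 111 and 29.7 CPM in replicates 1, 2 and 3. In auxin-treated cells it was 31.9, 85.3 and 22.3 CPM. The level was lower after auxin in 3 of 3 replicates, by ratios of 0.706, 0.766 and 0.751, while the control replicates themselves differed by up to 3.75-fold. The log2 ratio of auxin to control was −0.43 ± 0.06 (s.d., n = 3 replicates), and flipping the signs of the 3 log2 ratios in all ways (exact permutation, two-sided) gave p = 0.25, the lowest value 3 replicates can reach.

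Single plates showed the same ordering in replicate 1 and a partial overlap in replicate 2. The control plates of replicate 1 held 38.7 and 50.8 CPM and the auxin plates 29.8 and 34.2 CPM, so that the groups did not overlap. In replicate 2 the control plates held 98.2, 104, 120 and 124 CPM and the auxin plates 70.0, 78.1, 85.9 and 108 CPM, and 1 auxin plate lay above 2 of the 4 control plates. Plates of a replicate come from the same experiment and are not independent cultures. Non-overlap in the lower direction was seen for 2 of the 7 members in replicate 1 (Mycn and Mnt) against 13.3% of all genes, and for 0 of 7 in replicate 2 against 5.78%. In the higher direction it was seen in replicate 1 for 0 of 7 members against 17.8% of genes.

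In the edgeR quasi-likelihood test over all 17514 genes, the log2 fold change of Mycn was −0.45 ± 0.63 (standard error, s.e.), with a Benjamini-Hochberg adjusted p of 1.00. None of the 7 members passed the adjusted threshold of 0.05, and 0% of all genes did (33 genes, or 0.188%, and 0 members had an unadjusted p below 0.05, and DESeq2 also called 0 genes, with 66 at that unadjusted level). With the replicate as a block, edgeR called 3 genes, or 0.0171%, none of them a member. The log2 fold change of Mycn in the blocked edgeR fit was −0.45 ± 0.12 (s.e.), with an unadjusted p of 0.00612 and an adjusted p of 0.697. An unadjusted p below 0.05 was reached in the blocked fit by 1 of 7 members, Mycn, against 5.92% of all genes in either direction and 3.01% with a lower level after auxin. With the disputed plates put back, the log2 ratio of Mycn in replicate 3 was −0.27 as annotated and −0.15 as in the source values. Mycn was therefore lower after auxin in every replicate, but it did not pass the threshold across all genes.

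**Figure D2:**
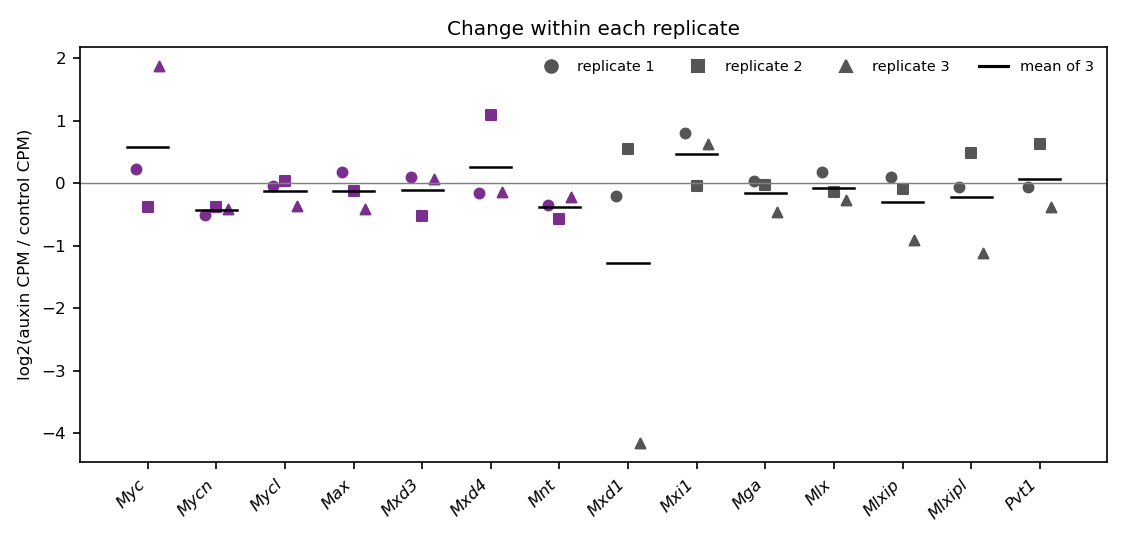
Log2 ratio of auxin to control CPM (y axis) within each replicate for the 7 members (purple), the other genes of the MAX and MLX network and the Myc neighbor Pvt1 (gray). Symbols mark the replicate and black lines the mean of 3. The 3 points of Mycn sit together below 0 (−0.50, −0.38 and −0.41), whereas those of Myc run from −0.39 to 1.88.

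Myc (chr15:61985391-61990374, plus strand), the founding member of the family, had 15.0, 24.5 and 6.93 CPM in control cells of replicates 1, 2 and 3. In auxin-treated cells it had 17.6, 18.8 and 25.4 CPM. The replicates disagreed in direction, with Myc higher after auxin in replicates 1 and 3 and lower in replicate 2. The edgeR log2 fold change was 0.36 ± 0.50 (s.e., adjusted p = 1.00). It rested on replicate 3, without which it was −0.12. The 2 plates left out in replicate 3 held 7.56 CPM under the control annotation and 22.1 CPM under the auxin annotation, close to the plates that were kept. Placing them as the source values of the study have it gave a log2 fold change of −0.06, so the direction of Myc turns on which of the 2 labels is right.

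Pvt1, a long noncoding RNA gene that starts 47.6 kb beyond the end of Myc, also went different ways. Its control values were 9.27, 59.8 and 32.0 CPM in replicates 1, 2 and 3, and its auxin values 8.89, 92.1 and 24.5 CPM. Its highest and lowest sums differed by 10.4-fold, a wider range than the 3.67-fold of Myc. The edgeR log2 fold change of Pvt1 was 0.29 ± 0.86 (s.e., adjusted p = 1.00), and −0.28 without replicate 2.

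Mycl (chr4:122995652-123002485, plus strand), the remaining paralog, had 4.94, 10.3 and 10.1 CPM in control and 4.78, 10.5 and 7.78 CPM in auxin-treated cells. The conditions overlapped, and the log2 fold change was −0.13 ± 0.43 (s.e., edgeR adjusted p = 1.00).

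Max (chr12:76937269-76962201, minus strand) varied least between the sums of any member. It had 8.71, 9.26 and 13.5 CPM in control and 9.83, 8.50 and 10.2 CPM in auxin-treated cells, a span of 1.59-fold over the 6 sums against 2.13-fold to 5.00-fold for the other 6 members. The log2 fold change was −0.12 ± 0.37 (s.e., edgeR adjusted p = 1.00), and Max was higher after auxin in 1 of 3 replicates. Max lies 64.0 Mb from Mycn on the same chromosome.

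Mnt (chr11:74830920-74845725, plus strand), a repressor that dimerizes with MAX, was the only member besides Mycn that was lower after auxin in 3 of 3 replicates. It had 4.49, 11.1 and 12.4 CPM in control and 3.54, 7.47 and 10.6 CPM in auxin-treated cells. With the disputed plates put back as annotated, replicate 3 turned, with 9.63 CPM in control and 10.002 CPM after auxin, and as in the source values it stood at 10.8 and 8.93 CPM. Across all genes tested, 13.7% were lower in all 3 replicates and 15.6% higher, against 2 and 0 of the 7 members. The log2 fold change of Mnt was −0.38 ± 0.51 (s.e., edgeR adjusted p = 1.00). The plates differed less clearly than the sums. In replicate 1 the auxin plates both held 3.54 and 3.53 CPM and the lower control plate 3.64 CPM, and in replicate 2 the auxin plates ran from 4.49 to 10.5 CPM and the control plates from 10.0 to 12.3 CPM.

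Mxd3 (chr13:55325168-55329823, minus strand), a MAX partner known from dividing cells, had 7.05, 7.99 and 11.4 CPM in control and 7.54, 5.57 and 12.0 CPM in auxin-treated cells. It was higher after auxin in 2 of 3 replicates, and the log2 fold change was −0.07 ± 0.45 (s.e., edgeR adjusted p = 1.00). Plates of replicate 2 spread widely, with 1 auxin plate at 0.582 CPM (7 UMIs) and the other 3 between 5.16 and 8.99 CPM. Mxd3 overlaps Prelid1 on the opposite strand, and whether the counting used strand is not given in the sources used here.

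Mxd4 (chr5:34173883-34187720, minus strand), a MAX partner linked to the exit from division, was sparse, with 105 positive cells of 1167. It had 3.72, 2.30 and 3.46 CPM in control and 3.33, 4.90 and 3.14 CPM in auxin-treated cells. Replicate 2 alone was higher after auxin, and there the auxin plates (3.41, 4.27, 5.39 and 6.51 CPM) lay above all control plates (1.31, 1.56, 3.10 and 3.25 CPM). Such non-overlap in the higher direction was seen for 1 of 7 members in replicate 2 against 7.47% of all genes, and the edgeR log2 fold change over the 3 replicates was 0.21 ± 0.56 (s.e., adjusted p = 1.00). With TMM scaling of each plate, the Mxd4 plates of replicate 2 overlapped, and those of replicate 1 separated in the lower direction, so that 3 of 7 members (Mycn, Mnt and Mxd4) did so there against 15.0% of genes. Mxd4 overlaps Gm42846 on the opposite strand and Max overlaps Gm47218 on the same strand, so their counts could share reads with these genes.

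The share of cells with at least 1 UMI was compared next, since a level over many cells does not say how many cells contribute. Shares depend on depth, and cells were therefore thinned to 20000 UMIs. Shallower cells were left out (8 control and 13 auxin-treated in replicate 2, 1 and 5 in replicate 3, and 0 in replicate 1), which left 168, 363 and 84 control and 169, 277 and 79 auxin-treated cells. In control cells, the share positive for Mycn in replicates 1, 2 and 3 was 46.4% (95% exact Clopper-Pearson interval 38.7 to 54.3), 69.1% (64.1 to 73.9) and 34.5% (24.5 to 45.7). In auxin-treated cells it was 28.4% (21.7 to 35.8), 50.2% (44.1 to 56.2) and 22.8% (14.1 to 33.6). The intervals cover only the counting error of cells of the same replicate in 1 draw, so their overlap does not compare the conditions. In replicate 1 the difference was −18.0 points in this draw and −11.8 points over all draws.

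The mean difference for Mycn was −16.2 ± 3.93 percentage points (s.d., n = 3), with p = 0.25 by exact sign flipping, again the lowest value possible. Averaged over all possible draws of 20000 UMIs rather than 1 draw, it was −11.8 ± 3.07 points, and without thinning −14.2 ± 1.63 points, from 65.7% to 51.6%. With the disputed plates put back it was −14.7 points as annotated and −14.0 points as in the source values. It was −8.05 points when cells were thinned to 10000 UMIs and −10.3 points when at least 2 UMIs were required. Fewer cells were positive for Mycn after auxin in every replicate under each of these ways of counting. Without thinning, a positive cell held 7.68, 17.6 and 4.19 Mycn UMIs in control and 7.66, 21.4 and 4.66 in auxin-treated cells of replicates 1, 2 and 3. The mean over all cells was 4.85, 14.7 and 2.12 UMIs in control and 3.63, 14.8 and 1.77 in auxin-treated cells, and in replicate 2, where the median cell held 143842 UMIs in control and 187088 after auxin, the raw mean was not lower. In the summed CPM alone, fewer positive cells and fewer transcripts per cell cannot be told apart. A thinned share lower in all 3 replicates was seen for 3 of 7 members (Mycn, Max and Mnt) against 11.5% of all genes, and a higher one for 1 (Mxd4) against 13.8%. Without thinning, the same 3 members were lower in all 3 replicates against 9.93% of genes, and 0 were higher against 17.5%.

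For Myc the thinned share was 11.9%, 18.2% and 10.7% in control and 19.5%, 14.8% and 22.8% in auxin-treated cells of replicates 1, 2 and 3. The mean difference was 5.44 ± 7.95 points (p = 0.50 by exact sign flipping), with the same split of directions as the CPM. With the disputed plates placed as in the source values it was 0.863 points, and replicate 3 then had −1.65 points. The differences of the other 5 members averaged between −3.26 and 2.62 points. Mnt had −3.26 ± 1.94, Max −2.35 ± 2.66, Mycl −1.24 ± 2.49, Mxd3 0.15 ± 2.52 and Mxd4 2.62 ± 1.40 points. Without replicate 3 the difference was 2.12 points for Myc and −0.882 for Max. Averaged over all draws, Max was lower in 2 of 3 replicates and Mxd4 higher in 2 of 3, so only Mycn and Mnt kept 1 direction in all replicates, against 13.6% of genes lower in all 3. Mnt did not keep it under other settings. It had 0.571 points in replicate 1 at 10000 UMIs, and 2.37 points in replicate 3 with all plates as annotated. Over all draws, none of the 7 was higher in all 3, against 16.6% of genes.

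**Figure D3:**
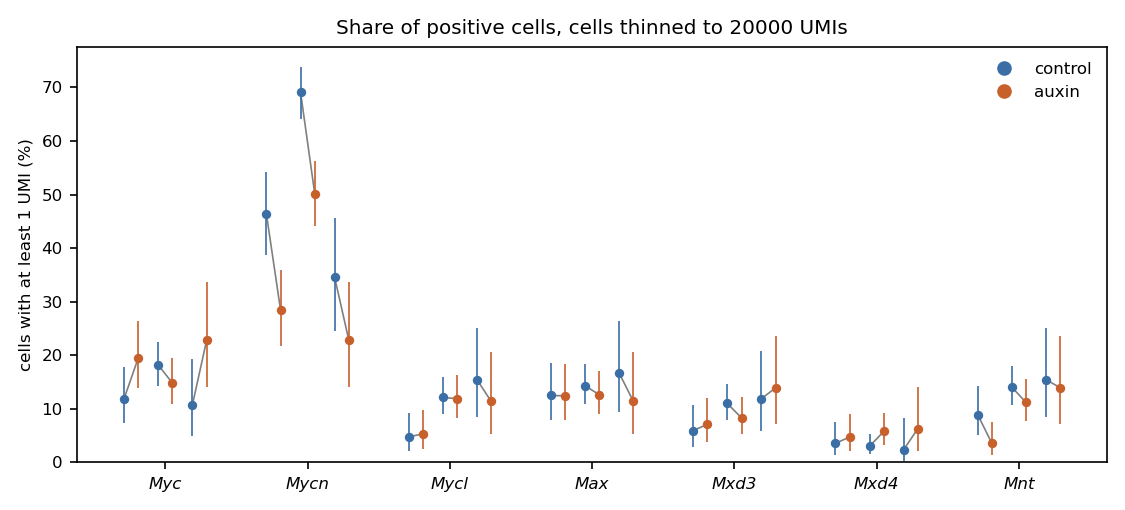
Percent of cells with at least 1 UMI (y axis) after thinning to 20000 UMIs, without the cells below that depth, for each member and replicate (replicates 1 to 3 from left to right, control joined to auxin). Bars are 95% exact binomial intervals. Mycn drops from 46.4, 69.1 and 34.5% to 28.4, 50.2 and 22.8%, and the other 6 members reach at most 22.8%.

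UMIs of the members were unevenly spread over cells. Across the 6 sets of replicate and condition, the 10% of cells with the most Mycn UMIs held 31.2% to 57.7% of them. For Myc the range was 57.1% to 78.6% and for Max 59.8% to 70.6%. All 7 members were positive in fewer cells than independent (Poisson) sampling at the same mean would give, in 6 of 6 sets. This was not particular to them. Mxd1, Mxi1, Mga, Mlx, Mlxip, Mlxipl, Pvt1 and Rad21 also fell below that value in every set. Rad21, for example, had 61.5% against 90.8% in control cells of replicate 2. The share over all genes was not computed. In control cells of replicate 2, for example, 32.3% of cells had a Myc UMI where Poisson sampling at that mean gives 87.7%, and the single highest cell of all 6 sets held 73 Myc UMIs, in auxin-treated cells of replicate 2.

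Genes of similar abundance were used for comparison. A positive cell held 8.83 Myc UMIs on average and 14.9 Mycn UMIs. For the 2916 genes with a mean of 2 to 5 UMIs per cell, as Myc had, the median was 6.74 with a 5th to 95th percentile range of 4.24 to 10.2, and for the 1747 genes with a mean of 5 to 10, as Mycn had, it was 10.4 with a range of 7.63 to 14.2. Myc lay within its range and Mycn above it, but the mean of Mycn (9.87 UMIs) was at the upper edge of its class, and in the next class, with a mean of 10 to 20, the range was 12.7 to 22.3 and the median 16.7. Max and Mnt, at 4.10 and 3.41 UMIs per positive cell, lay within the range of genes with a mean of 1 to 2 (2.51 to 8.09). These values pool replicates whose means differ, for Mycn most of all (2.12 to 14.7 UMIs per control cell), so the position of a member in its range describes the pool and not any 1 replicate.

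The relation of each member to the total mouse UMI count of a cell was then described by Spearman correlations across the cells of a set. These share the depth of each cell and carry no p-value. The CPM per cell of Mycn correlated with the UMI count at a mean of 0.28 over 6 sets (0.16 to 0.44), and that of Myc at 0.28 (0.11 to 0.39), both above 0 in 6 of 6 sets. Across 9269 genes with a mean of at least 1 UMI per cell, the median of the same mean was 0.14 and the 5th to 95th percentile range 0.01 to 0.23, and 48.6% of these genes were above 0 in all 6 sets, as were 4 of the 7 members (Myc, Mycn, Mxd3 and Mnt). The correlations of Mycl (0.16), Mnt (0.14), Mxd3 (0.13), Max (0.10) and Mxd4 (0.01) lay within that range, although Mxd3 and Mxd4, with means of 0.937 and 0.457 UMIs per cell, fall below the limit that the compared genes had to meet. Values of at least the size seen for Mycn and Myc were reached by 0.906% and 1.06% of genes, respectively. Against the ratio of mouse to ERCC counts in place of the UMI count, the mean correlation was 0.16 for Mycn and 0.23 for Myc.

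A gene at low counts is often missed in shallow cells, and counts thinned to 20000 UMIs were therefore compared with the unthinned total as well. Myc then had a mean correlation of 0.20 and Mycn of 0.16, against a median of 0.05 and a 5th to 95th percentile range of −0.06 to 0.16 over 9101 genes. Values at least as high were reached by 4.12% of genes for Mycn and 1.49% for Myc. Both stayed above 0 in 6 of 6 sets, as did 16.2% of genes. The other 5 members came to between −0.03 and 0.07. The correlation of Myc with the UMI count was on average 0.11 ± 0.14 higher in auxin-treated than in control cells (s.d., n = 3; CPM per cell; p = 0.25 by exact sign flipping; 0.02, 0.03 and 0.27 in replicates 1, 2 and 3), which rested on replicate 3. With thinned counts the difference for Myc was 0.04 ± 0.06 (p = 0.50 by exact sign flipping), higher in 2 of 3 replicates. By CPM per cell the correlation of Mycn was 0.03 ± 0.10 higher (p = 0.75 by exact sign flipping), in 2 of 3 replicates.

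**Figure D4:**
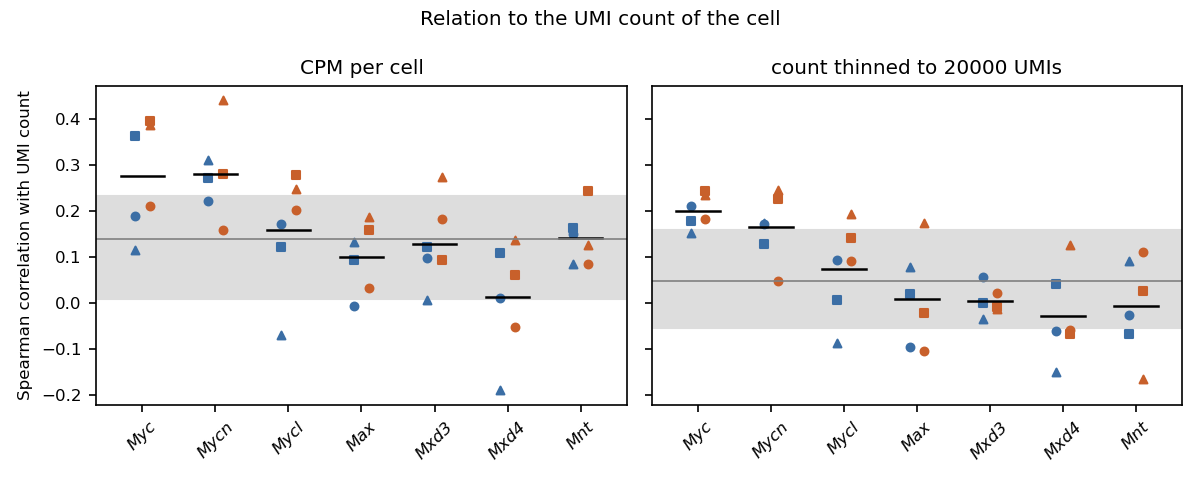
Spearman correlation (y axis) of each member with the UMI count of the cell, for CPM per cell (left) and for counts thinned to 20000 UMIs (right). Points are the 6 sets (blue control, orange auxin; circle, square and triangle for replicates 1, 2 and 3), black lines their mean, the gray line the median over genes and the gray band the 5th to 95th percentile range. The means of Myc and Mycn lie above the band on the left (0.28 and 0.28). On the right Myc (0.20) lies above it and Mycn (0.165) only just above its edge (0.158).

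The same relation was visible in levels. Cells of each set were split into 3 groups of equal size by UMI count, called the low, middle and high group. In control cells of replicate 2, Myc was at 14.8, 22.4 and 28.7 CPM in the low, middle and high group, and in auxin-treated cells of that replicate at 5.01, 20.7 and 21.1 CPM. Myc was higher in the high than in the low group in 6 of 6 sets, by 1.33-fold to 4.22-fold, and Mycn likewise, by 1.12-fold to 4.28-fold. Across genes with a mean of at least 1 UMI, 5.61% were higher in the high group in all 6 sets. Mycl met this in 4 of 6 sets, Mxd3 in 3, Mnt in 2, and Max and Mxd4 in 1 each.

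The level of Mycn was also described within these groups, which rank cells inside a set and do not match depth between conditions. In replicate 2 the median UMI count of the high group was 191147 in control and 256654 after auxin. In the low group it was 44948.5 and 69266. In the high group, control and auxin-treated cells had 52.2 and 35.4 CPM in replicate 1, 104 and 88.7 CPM in replicate 2, and 35.8 and 31.1 CPM in replicate 3. In the low group they had 34.9 and 23.5 CPM, 92.4 and 58.6 CPM, and 15.1 and 7.27 CPM. Mycn was lower after auxin in both groups in every replicate. The groups divide UMIs whose sum was already lower in each replicate, so this is not a further test. The share of all genes that behave so was not computed.

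**Figure D5:**
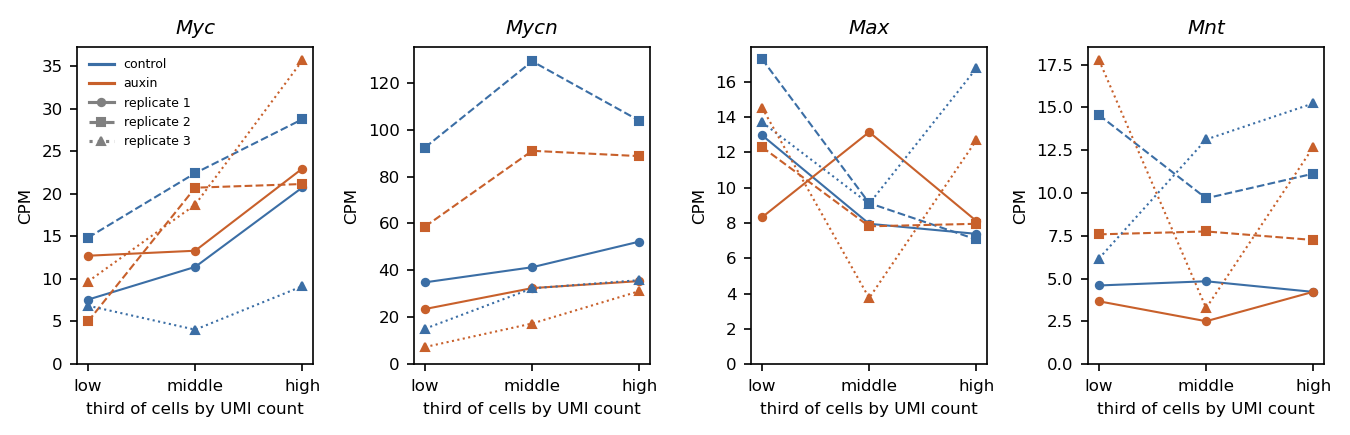
CPM (y axis, from 0) of Myc, Mycn, Max and Mnt in the 3 groups of cells with low, middle and high UMI counts (x axis), for control (blue) and auxin-treated (orange) cells of replicates 1 (solid), 2 (dashed) and 3 (dotted). Myc and Mycn are higher in the high than in the low group in 6 of 6 sets, Max in 1 and Mnt in 2.

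Members were only weakly related to one another across cells. The mean Spearman correlation of CPM per cell lay between −0.03 and 0.09 for the 21 pairs. Myc and Mycn had the highest, 0.09 (0.00 to 0.18 over the 6 sets), and 19.3% of cells held UMIs of both, where 16.4% would if they were independent. Mycn and Max, on the same chromosome, had 0.01. These values are too small in such sparse counts to describe a relation.

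With genes outside the family, no correlation averaged over the 6 sets reached the limit of 0.3 for any of the 5 members with a mean of at least 1 UMI per cell, over 9517 genes, although single sets exceeded it for all 5. The highest mean for Mycn was 0.24 (Tubb5, a tubulin), for Myc 0.22 (Ccne1, the cyclin E1 gene of the G1/S transition), for Mycl 0.18 (Kif14), for Mnt 0.17 (Jade2) and for Max 0.14 (Sbds). With the summed CPM of 16 G2/M genes, Mycn had a mean correlation of 0.17 (−0.01 to 0.30) and Myc 0.04 (−0.13 to 0.17). With 12 G1/S genes Myc had 0.13 (−0.08 to 0.28) and Mycn 0.01 (−0.27 to 0.24). The same values over other genes were not computed.

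The summed G2/M markers differed between conditions as well, at 2918 and 3618 CPM in control and auxin-treated cells of replicate 1, 5765 and 5285 CPM in replicate 2, and 4254 and 5281 CPM in replicate 3. They were higher after auxin in replicates 1 and 3, where Mycn was lower, and lower in replicate 2, where Mycn was lower too. Summed ES cell markers were 10924 and 10002 CPM, 4946 and 3233 CPM, and 8832 and 9132 CPM. Dppa5a, an ES cell gene, made up most of each sum, with 7998 and 7406 CPM, 3560 and 2118 CPM, and 6308 and 6887 CPM. In replicate 3, Dppa5a, Zfp42 and Tfcp2l1 were higher after auxin. Pou5f1, Nanog, Esrrb, Klf2, Klf4, Tdgf1, Dppa4 and Utf1 were lower after auxin in that replicate. Like the sum, Pou5f1, Nanog, Esrrb, Klf2, Klf4, Zfp42 and Tfcp2l1 were lowest in replicate 2 in both conditions, whereas Dppa4 and Utf1 were highest there. The part of these markers in the levels of the members was not tested.

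The rest of the MAX and MLX network was examined from a list of 6 genes, of which 6 were tested and 0 passed. MLX and MGA, a partner of the MondoA (Mlxip) and ChREBP (Mlxipl) proteins and a large MAX-binding repressor respectively, were the most abundant. Mlx had 66.2, 71.9 and 108 CPM in control and 74.9, 65.1 and 90.5 CPM in auxin-treated cells, and Mga 47.3, 76.8 and 81.8 CPM and 48.3, 75.5 and 59.7 CPM. Both thus exceeded Max in every sum. Mxi1, a repressor of the MXD group, was at 22.3, 30.8 and 25.4 CPM in control and 39.0, 30.0 and 39.3 CPM in auxin-treated cells. Its log2 fold change was the highest of the network, 0.48 ± 0.28 (s.e., edgeR adjusted p = 1.00), with replicates 1 and 3 higher after auxin and replicate 2 about level. With the replicate as a block it was 0.44 ± 0.20 (s.e., edgeR unadjusted p = 0.054, adjusted p = 0.845).

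Mxd1 had the lowest, −0.94 ± 0.91 (s.e., edgeR adjusted p = 1.00), which came from replicate 3 with 10.7 CPM in control and 0.598 CPM in auxin-treated cells. Without replicate 3 it was 0.23. With the disputed plates put back it was −0.32 as annotated and −0.46 as in the source values. Mlxip and Mlxipl gave −0.34 ± 0.58 and −0.39 ± 0.57 (s.e., edgeR adjusted p = 1.00 for both), and −0.06 and 0.21 without replicate 3. The disputed plates as annotated gave −0.40 and 0.00337, and as in the source values 0.00212 and −0.28. The median log2 fold change of the 6 genes was −0.25, that of the 7 members −0.12 and that of all genes tested 0.00.

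Genes that act with MYC or downstream of it were also taken as lists. Of 21 cofactors and turnover factors, 21 were tested and 0 passed, with a median log2 fold change of −0.05. The lowest was Ncor1, a nuclear receptor corepressor, at −0.50 ± 0.23 (s.e., edgeR adjusted p = 1.00; adjusted p = 0.556 with the replicate block), with 170, 150 and 198 CPM in control and 105, 112 and 156 CPM in auxin-treated cells. Skp2, a ubiquitin ligase subunit that acts on MYC, had −0.31. The highest were Kat5, an acetyltransferase, at 0.18, and Aurka, a mitotic kinase, at 0.30. Ncor1 was lower in 3 of 3 replicates, as were 13.7% of all genes.

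Of 46 targets that MYC is known to raise, 43 were tested and 0 passed in either direction. Their median log2 fold change was −0.05, and all 43 lay between −0.23 and 0.16. Counted singly, 12 of the 43 (27.9%) were lower in all 3 replicates and 4 (9.30%) higher, beside 13.7% and 15.6% of all genes. The lowest were Ddx18 and Tcof1, which act in ribosome production, at −0.23 each, and the highest were Ldha, lactate dehydrogenase A, at 0.16, and Impdh2, of guanine nucleotide synthesis, at 0.14.

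Of 8 targets that MYC is known to lower, 8 were tested, 0 passed and the median log2 fold change was 0.01. Ndrg1, a gene known to respond to stress and low oxygen, stood apart at −1.80 ± 0.62 (s.e., edgeR adjusted p = 1.00; adjusted p = 0.386 with the replicate block). It had 9.43, 8.14 and 4.29 CPM in control and 2.50, 2.32 and 1.65 CPM in auxin-treated cells, lower in 3 of 3 replicates. The other ends of the list were Ndrg2 at −0.37, Cdkn2b at 0.24 and Cdkn2c at 0.26.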

How the data were processed

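Smart-SCRB libraries of 3 replicates, each with control and auxin-treated cells, were used. The authors used the mm10 genome and deposited UMI counts of every gene in every well as whole numbers, not normalized, and per well the numbers of detected genes and counts and the percent of ERCC counts; aligner and annotation are not given in the sources used here. Wells with more than 2600 detected genes were kept (1335 of 1536), 168 of which, on the disputed plates, were left out. The cells of each replicate and condition were summed and the sums tested with edgeR 4.0.16 (R 4.3.3; quasi-likelihood, TMM, filterByExpr, Benjamini-Hochberg), and with DESeq2 1.42.0 as an alternative. Replicate numbers pair the samples, since the deviations of the 2 sums of a replicate correlated at 0.866, 0.824 and 0.666. The fit without the block does not use this pairing, so its s.e. includes differences between replicates. CPM used mouse UMIs; ERCC and transgene rows were left out. Thinning drew UMIs without replacement (seed 1). Positions came from GENCODE vM21. Scripts used Python 3.11.15 with scipy 1.17.1 and were tested on simulated data. Genes were named by a rule: the members, the network, Pvt1, Rad21, and of other lists those past the threshold or, with none, the 2 lowest and 2 highest. The members and lists were chosen with earlier results of these data known. The study describes its replicates as biological. The expected share over all draws, and the blocked fits with the disputed plates, were added after seeing the data.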

Additional observations from a re-analysis of the deposited data

Results flagged for a closer look

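The 201 wells at or below 2600 detected genes, which no comparison used, held 719551 mouse UMIs and still contained members above the limit that a count of 0 allows (3 counts). Mycn was at 25.0 CPM (18 UMIs), Mnt at 18.1 CPM (13 UMIs), Max at 16.7 CPM (12 UMIs) and Myc at 6.95 CPM (5 UMIs) in the pooled wells. Among the 4 plates per condition of replicate 2, no plate of any member stood apart by Dixon's test at its 95% level (14 groups).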

How the results depend on the processing

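No member passed the adjusted threshold in any fit. The number of genes called across the genome was 0 without the replicate block, 3 with it, 3 with the block and the disputed plates as annotated, 0 with the block and those plates as in the source values, 57 with DESeq2 and the block, and, with the block, 14, 32 and 2 without replicates 1, 2 and 3. Of 112 alternative log2 fold changes of members, 103 kept their sign and 9 did not. Myc turned to −0.0551 with the disputed plates placed by the source values (−0.0471 with the replicate block) and ranged from −0.117 to 0.838 when a replicate was left out (−0.124 to 0.945 with the block). The ranges over both fits with a replicate left out were −0.49 to −0.40 for Mycn, −0.23 to −0.03 for Mycl, −0.28 to 0.01 for Max, −0.193 to 0.0818 for Mxd3 (−0.255 to 0.0786 with the block), −0.163 to 0.514 for Mxd4 (−0.159 to 0.558 with the block) and −0.52 to −0.25 for Mnt.

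Differences in the share of positive cells kept their sign for Myc, Mycn, Max, Mxd4 and Mnt under all alternatives run, but not their size. Mycn (−16.2 points) was at −8.05 at 10000 UMIs and −10.3 for at least 2 UMIs, and ranged from −18.5 to −14.9 with a replicate left out. With the disputed plates as in the source values Myc (5.44) was at 0.863 and Max (−2.35) at −0.693; without 1 replicate they ranged from 2.12 to 9.85 and from −3.48 to −0.882. Mxd4 (2.62) was at 0.367 at 10000 UMIs and 1.55 over all draws, and Mnt (−3.26) at −2.13 over all draws and −1.96 with all plates as annotated, where replicate 3 turned to 2.37. Mycl turned to 0.124 points with all plates as annotated and ranged from −2.15 to 0.178 without 1 replicate. Mxd3 was at −0.148 at 10000 UMIs, −0.789 over all draws, −0.0802 above 4000 genes and −0.937 with all plates, and ranged from −0.784 to 1.58 without 1 replicate. For the relation to the UMI count, thinning gave 0.165 for Mycn, 0.0724 for Mycl, 0.00794 for Max, 0.00249 for Mxd3 and −0.00629 for Mnt. Against the ratio of mouse to ERCC counts the relation was 0.156 for Mycn, 0.0939 for Mxd3 and 0.0793 for Mnt; Mxd3 was at 0.103 by Pearson and 0.105 above 4000 genes. The mean over the 21 pairs (0.0373) was 0.0571 on raw counts and 0.0137 with the UMI count partialled out. The causes of these changes were not tested.

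Replicate 3 had 1 plate per condition, and with 3 replicates no sign-flip test can fall below p = 0.25 (exact permutation), so that single values cannot pass a threshold of 0.05. Depth limits most members, since Mycl, Mnt, Mxd3 and Mxd4 were under 1 UMI per cell in all sets of replicates 1 and 3, and Max in 3 of those 4.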
